A study of Homo sapiens with 31 samples.

Results

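The RNA of 42 genes that bring human cells from G1 into S phase and copy the DNA was compared between TMD8 cells with wild-type RHOA (WT) and TMD8 cells with the RHOA change p.R5W (R5W). The genes were named from their roles, with no measured value in the rule, but with earlier results of these data known. All 42 were found among the 25073 genes of the table for this experiment. ORC1, ORC6 and CDC45 are listed there under the older symbols ORC1L, ORC6L and CDC45L. TMD8 is an established human line grown from a large B-cell lymphoma of the activated (ABC) kind, and the labels call the R5W cells a knock-in. Both groups received copanlisib, which inhibits PI3K, at 50 nM overnight, so each difference below is one between genotypes under the drug, and cells without the drug are not in this comparison. Each group held 2 libraries, made at a single sequencing core with a stranded mRNA kit. Whether the R5W cells are a single clone, how many RHOA alleles carry the change, and whether replicates came from separate cultures is stated nowhere in the labels, so p-values measure only the spread between these libraries. The series has 31 samples, and its other 27 libraries, 9 of them from cells given DMSO and the rest from cells given ibrutinib or Rhosin, were not analysed here.

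Cells pass from G1 into S phase when cyclin D with CDK4 or CDK6, and then cyclin E with CDK2, phosphorylate the RB protein family and free the E2F transcription factors. E2F proteins raise transcription of the genes that load and fire replication origins, supply nucleotides and copy the DNA. Origins are licensed in G1, when ORC, CDC6 and CDT1 load the MCM helicase onto DNA, and fire in S phase, when CDC45 and GINS join the MCM ring and polymerases follow. In B-cell lymphoma this programme sets the pace of proliferation, and signals through PI3K feed into it.

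The values are log2 of read counts that the authors scaled by 1 factor per library. The counts behind them could be recovered and came to 19460254 to 21957696 reads per library, with 193 (POLE2 in WT replicate 2) to 13390 reads (MCM5 in R5W replicate 1) for the genes described here. RHOA itself had log2 values of 13.83 and 13.70 for WT against 13.65 and 13.73 for R5W, a difference of -0.07 (SE 0.0747, adjusted p = 0.531); these levels cannot show the altered codon. Of the markers of B cells and of this lymphoma type, MS4A1 had log2 values of 15.79 and 15.78 for WT against 14.99 and 15.26 for R5W, CD79A had 14.49 and 14.44 for WT against 14.30 and 14.14 for R5W and IRF4 had 15.02 and 15.03 for WT against 15.91 and 15.95 for R5W, so the defining markers shown here were present in every library. Of 11 markers of T, myeloid, epithelial and red cells, CD3D, CD3G, EPCAM, HBB and HBA1 had 0 reads in every library, and the 11 together held 169 and 171 reads in WT and 336 and 288 in R5W. Between the genotypes MS4A1 fell by 0.66, IRF4 rose by 0.91, KRT8 rose by 1.78 and CD8A fell by 0.88 on the log2 scale. CD79A fell by 0.25 and CD79B by 0.29 (limma, adjusted p = 0.0295 and 0.00897). The B-cell genes PAX5, at -0.21, and CD22, at 0.17, did not pass adjusted p under 0.05. The part of such shifts in the results below was not tested.

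Transcripts of the replication programme were higher in R5W. By limma, with adjusted p under 0.05 over the 13698 genes tested, 35 of the 42 genes were higher and 0 were lower, where 13.1% of all genes tested were higher and 11.9% were lower. At an unadjusted p under 0.05, 0 of the 42 were lower as well, and limma-voom on the recovered reads also called 0 lower. The median log2 fold change was 0.53 for the 42 genes and 0.01 for all genes tested. The range ran from -0.04 for E2F2 to 0.90 for CDC25A and GINS2, which is a 1.87-fold and a 1.87-fold higher level. In 39 of the 42 genes both R5W libraries lay above both WT libraries, an arrangement that 32.4% of all genes tested showed, and the groups overlapped for E2F2, GINS3 and LIG1. In bulk RNA, a larger share of cells in S phase and more RNA per cell cannot be told apart.

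**Figure D1:**
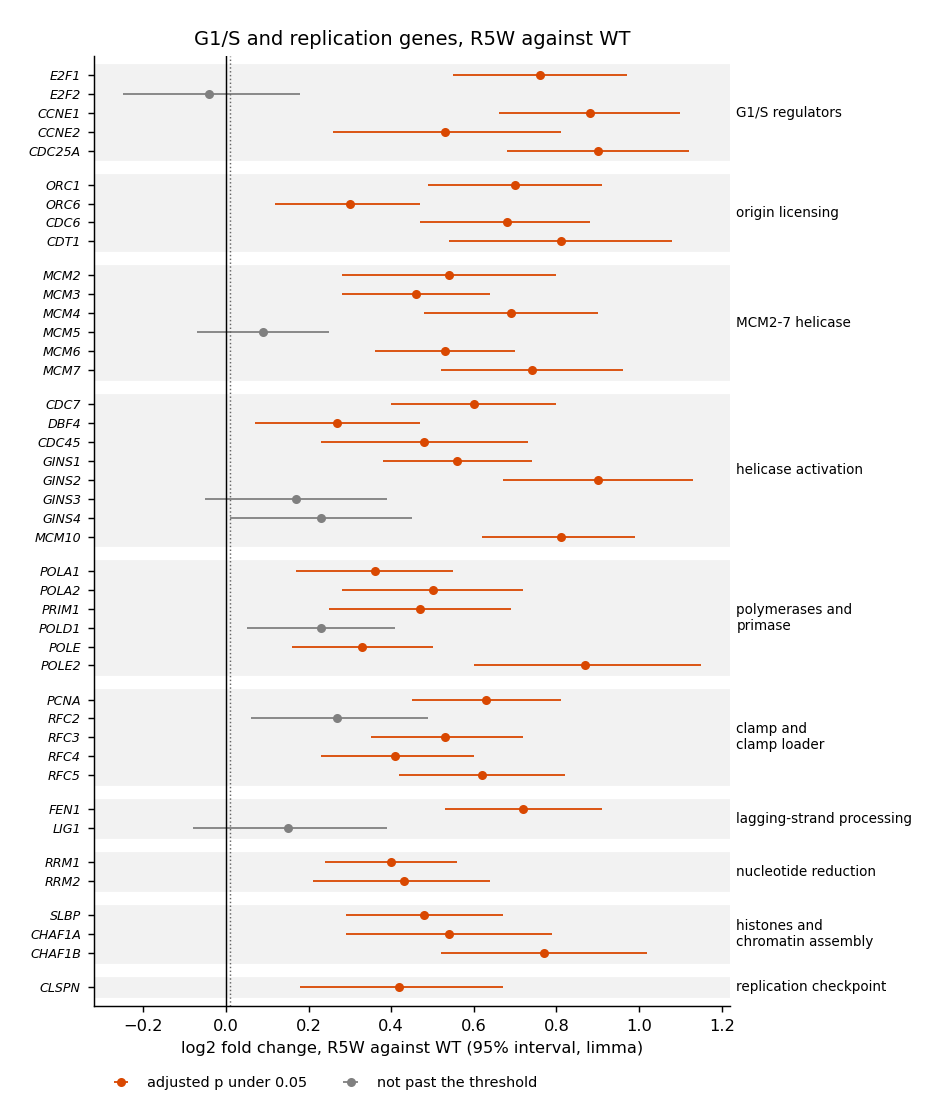
The x axis gives the log2 fold change of R5W against WT for each of the 42 genes, grouped by role; points are limma estimates with 95% intervals, from 2 libraries per genotype, and the dotted line is the median of all genes tested (0.01). The 35 orange genes passed adjusted p under 0.05, the 7 grey ones did not, and E2F2 is the only point below 0.

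The count of 35 depended on the libraries and on the settings of the test. Without WT replicate 1, 18 of the 42 genes were called, where 4.16% of all genes were called higher, and without the trend and robust steps of limma 7 were called (CCNE1, CDC25A, CDC7, GINS1, GINS2, MCM10 and POLE2), where 3.5% of all genes were. The 18 genes called with any single library left out were E2F1, CCNE1, CDC25A, ORC1, CDC6, CDT1, MCM4, MCM6, MCM7, CDC7, GINS1, GINS2, MCM10, POLE2, PCNA, RFC5, FEN1 and CHAF1B. The remaining 17 were lost without WT replicate 1. Calls were also gained: without R5W replicate 2, GINS3, GINS4, POLD1, RFC2 and LIG1 were added and DBF4 was lost. Calls over all genes became more frequent in that setting too, so the gain was not particular to the 42 genes. The median log2 fold change of the 42 genes stayed between 0.41 and 0.61 with any library left out.

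The libraries of a genotype also differed in step. R5W replicate 1 was above R5W replicate 2 for 37 of the 42 genes, by a median of 0.20 on the log2 scale, while this held for 47.6% of all genes tested. WT replicate 2 was above WT replicate 1 for 39 of the 42, by a median of 0.11, and WT replicate 1 was the higher library in 49% of all genes tested. Relative to the mean of the WT libraries, the median of the 42 genes stood at -0.06 and 0.06 in WT replicates 1 and 2, and at 0.61 and 0.41 in R5W replicates 1 and 2. For all genes tested the 4 medians lay between 0 and 0.02. The genes of the programme thus shared an offset within each library.

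**Figure D2:**
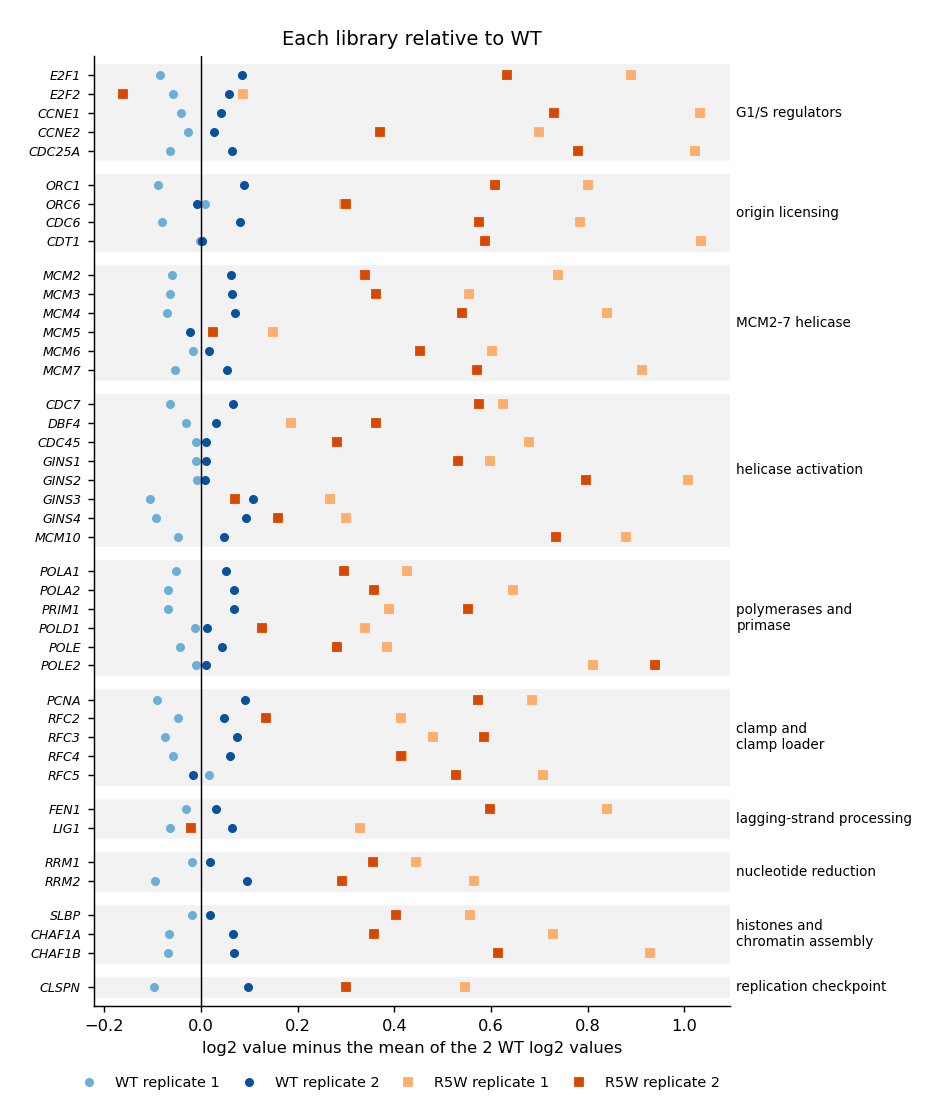
Each point is the log2 value of a library minus the mean of the 2 WT log2 values of the same gene, with circles for WT and squares for R5W. R5W replicate 1 is to the right of R5W replicate 2 in 37 of the 42 genes, and in 39 genes both squares are to the right of both circles.

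Many promoters of these genes hold the word that E2F proteins are known to read. RefSeq promoters (GRCh38.p14, from 250 bases before to 50 after the start of the gene) were at hand for 38 of the 42 genes. The E2F word was searched as TTNNCGC, where each N is C or G, on both strands, and overlapping matches on opposite strands were counted apart. It was found in 29 of the 38 promoters (76.3%), in 20.6% of the 10191 promoters of genes tested, and in 13.1% of all 27305 promoters. The longer word with a further T in front was found in 20 of the 38 (52.6%) and in 5.49% of promoters of genes tested, and the CCAAT box in 21 (55.3%) and 36.7%. The CHR word TTTGAA, known from genes of G2 and mitosis, was found in 2 of the 38 (5.26%) and in 10% of promoters of genes tested. Shown next are the 100 bases before the start of 9 genes, 5′ to 3′ on the strand of the gene, with E2F words in capitals. The first 7 hold the word, among them E2F2, whose RNA was not called different, and the last 2, CCNE1 and MCM10, had no match in the whole promoter while their RNA rose by 0.88 and 0.81 on the log2 scale.
E2F1 (chr20:33686386-33686485, minus strand): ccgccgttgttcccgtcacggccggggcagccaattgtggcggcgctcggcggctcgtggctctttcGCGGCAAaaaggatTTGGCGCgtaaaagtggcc
E2F2 (chr1:23531234-23531333, minus strand): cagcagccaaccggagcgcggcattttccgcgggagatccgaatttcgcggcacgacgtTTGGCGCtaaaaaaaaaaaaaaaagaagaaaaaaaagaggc
CDC25A (chr3:48188418-48188517, minus strand): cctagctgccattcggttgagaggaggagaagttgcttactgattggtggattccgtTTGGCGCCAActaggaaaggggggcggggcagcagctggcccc
ORC1 (chr1:52404424-52404523, minus strand): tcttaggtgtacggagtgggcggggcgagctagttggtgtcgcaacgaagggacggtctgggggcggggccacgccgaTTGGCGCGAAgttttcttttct
MCM7 (chr7:100101398-100101497, minus strand): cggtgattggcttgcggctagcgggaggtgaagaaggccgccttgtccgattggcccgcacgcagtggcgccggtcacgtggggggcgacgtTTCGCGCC
GINS2 (chr16:85688955-85689054, minus strand): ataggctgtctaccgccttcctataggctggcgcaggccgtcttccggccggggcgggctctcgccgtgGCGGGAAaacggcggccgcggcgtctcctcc
PCNA (chr20:5126623-5126722, minus strand): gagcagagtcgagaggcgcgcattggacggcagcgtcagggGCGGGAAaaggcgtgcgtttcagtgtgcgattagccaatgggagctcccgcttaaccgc
CCNE1 (chr19:29811891-29811990, plus strand): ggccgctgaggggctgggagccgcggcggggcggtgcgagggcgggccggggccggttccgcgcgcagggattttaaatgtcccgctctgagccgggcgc
MCM10 (chr10:13161458-13161557, plus strand): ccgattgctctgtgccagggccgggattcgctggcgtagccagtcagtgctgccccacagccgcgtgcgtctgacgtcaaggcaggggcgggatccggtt
Among the 38 genes, the 29 with the word had a median log2 fold change of 0.54, from -0.04 to 0.90, and the 9 without it had a median of 0.48, from 0.23 to 0.88. The ranges overlap, and a match to the word is not a measured binding site.

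Among the regulators of G1/S entry, 4 of 5 rose. E2F1, an activator E2F that drives its own gene as well as the replication genes, had log2 values of 10.73 and 10.90 for WT against 11.71 and 11.45 for R5W, a difference of 0.76 (SE 0.0982, adjusted p = 0.000122). E2F2, a closely related activator, had 10.32 and 10.44 for WT against 10.47 and 10.22 for R5W. The R5W values of E2F2 lay on either side of the WT values, and the difference was -0.04 with a 95% interval of -0.25 to 0.18 (adjusted p = 0.826), whereas the interval of E2F1 was 0.55 to 0.97. CDC25A, the phosphatase that removes the inhibitory phosphate from CDK2, had 9.67 and 9.79 for WT against 10.75 and 10.51 for R5W and rose by 0.90 (SE 0.102, adjusted p = 4.33e-05). CCNE1, which encodes cyclin E1, the partner of CDK2, had 10.11 and 10.19 for WT against 11.18 and 10.88 for R5W and rose by 0.88 (SE 0.102, adjusted p = 5.38e-05). In both genes the lower R5W library was clearly above the higher WT library. CCNE2, for cyclin E2, had 8.59 and 8.64 for WT against 9.31 and 8.98 for R5W and rose by 0.53 (SE 0.127, adjusted p = 0.00824). CCNE2 no longer passed without WT replicate 1 or without WT replicate 2 (largest adjusted p = 0.122), and 37% of its exon bases in GENCODE v29 overlap INTS8 on the opposite strand, so its reads are uncertain if strand was not used in counting.

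All 4 genes of origin licensing named in the programme rose. The ORC subunits ORC2, ORC3, ORC4 and ORC5 were kept in the list of further replication factors and did not pass. Their differences were -0.01, 0.19, -0.0 and 0.18 (limma, adjusted p = 0.954, 0.233, 0.996 and 0.194). CDT1, which delivers the MCM ring to the origin, had log2 values of 10.19 and 10.19 for WT against 11.22 and 10.78 for R5W and rose by 0.81 (SE 0.125, adjusted p = 0.000851). ORC1, the ORC subunit that comes and goes with the cell cycle, had 10.05 and 10.23 for WT against 10.94 and 10.75 for R5W and rose by 0.70 (SE 0.0975, adjusted p = 0.000214). CDC6, the ATPase that joins ORC to load MCM, had 10.49 and 10.65 for WT against 11.36 and 11.15 for R5W and rose by 0.68 (SE 0.0947, adjusted p = 0.000225). For these 3 genes the R5W libraries were separated from the WT libraries by more than the distance within either genotype. ORC6, a small subunit of ORC, had 10.44 and 10.43 for WT against 10.73 and 10.73 for R5W, a rise of 0.30 (SE 0.0822, adjusted p = 0.0181) that was lost without WT replicate 1 or WT replicate 2 (largest adjusted p = 0.234).

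Of the MCM2-7 ring, 5 of 6 subunits rose. MCM7 had log2 values of 12.59 and 12.70 for WT against 13.55 and 13.21 for R5W and rose by 0.74 (SE 0.102, adjusted p = 0.000316), and MCM4 had 12.71 and 12.85 for WT against 13.62 and 13.32 for R5W and rose by 0.69 (SE 0.0965, adjusted p = 0.000298). MCM6 had 11.86 and 11.89 for WT against 12.48 and 12.33 for R5W and rose by 0.53 (SE 0.0788, adjusted p = 0.000382). The R5W libraries of these 3 subunits lay well above WT, with replicate 1 the higher. MCM2 had 12.18 and 12.30 for WT against 12.98 and 12.58 for R5W and rose by 0.54 (SE 0.116, adjusted p = 0.00769), and MCM3 had 12.70 and 12.82 for WT against 13.31 and 13.12 for R5W and rose by 0.46 (SE 0.0838, adjusted p = 0.00159). Both were lost without WT replicate 1 (adjusted p = 0.0783 for MCM2 and 0.0824 for MCM3), and an antisense gene overlaps 22.7% of the exon bases of MCM2. MCM5 had 13.88 and 13.84 for WT against 14.01 and 13.88 for R5W. Its difference was 0.09 with a 95% interval of -0.07 to 0.25 (adjusted p = 0.432), and R5W replicate 2 was barely above the higher WT library.

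Per kb of transcript, MCM5 was the most abundant subunit of the ring in both genotypes. Its scaled reads per kb were 5908 and 5726 for WT against 6447 and 5916 for R5W. MCM3 followed with 2127 and 2325 for WT against 3267 and 2856 for R5W, MCM7 with 2120.2 and 2285 for WT against 4142 and 3268 for R5W and MCM4 with 1895 and 2089 for WT against 3560.0 and 2892 for R5W. In WT the libraries of MCM3 and MCM7 overlapped, with MCM4 just below them, and MCM7 was the highest of the 3 in both R5W libraries. MCM2, with 1351 and 1471 for WT against 2351 and 1783 for R5W, and MCM6, with 989 and 1012 for WT against 1518 and 1368 for R5W, were the lowest subunits in every library. Lengths are those of the transcript that the table names for each gene, so another main isoform would shift a level. Against the median of 237.0 scaled reads per kb in WT over 13692 genes tested, all 6 subunits stood high.

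**Figure D3:**
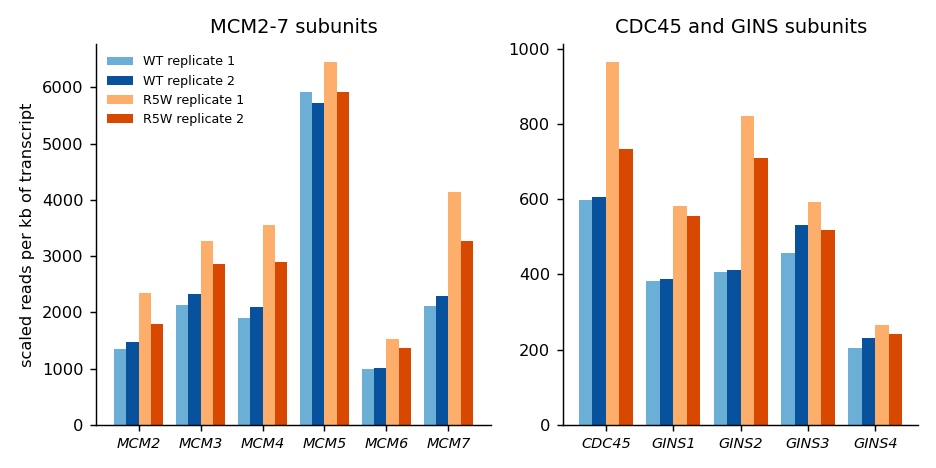
Bars start at 0 and give scaled reads per kb of transcript in each of the 4 libraries for the MCM2-7 subunits (left) and for CDC45 and the GINS subunits (right). MCM5 is the tallest subunit and nearly level across libraries, while the orange R5W bars of MCM4, MCM7 and GINS2 stand well above the blue WT bars.

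Among the factors that turn the loaded ring into an active helicase, 6 of 8 rose. GINS2 had log2 values of 8.91 and 8.93 for WT against 9.93 and 9.72 for R5W and rose by 0.90 (SE 0.108, adjusted p = 6.55e-05), and GINS1 had 10.30 and 10.32 for WT against 10.90 and 10.84 for R5W and rose by 0.56 (SE 0.0832, adjusted p = 0.000347). The other GINS subunits, GINS3 with 10.10 and 10.31 for WT against 10.47 and 10.28 for R5W and GINS4 with 9.61 and 9.79 for WT against 10.00 and 9.86 for R5W, did not pass. Their differences were 0.17, with a 95% interval of -0.05 to 0.39 (adjusted p = 0.261), and 0.23, with 0.01 to 0.45 (adjusted p = 0.123), although the 4 proteins form a single complex. Antisense genes overlap 10.9% of the exon bases of GINS3 and 21.2% of those of GINS4. MCM10, which helps the helicase to start, had 10.44 and 10.53 for WT against 11.37 and 11.22 for R5W and rose by 0.81 (SE 0.0865, adjusted p = 2.95e-05). CDC7, the kinase that phosphorylates MCM to fire origins, had 9.74 and 9.87 for WT against 10.43 and 10.38 for R5W and rose by 0.60 (SE 0.0918, adjusted p = 0.000456), while its activating subunit DBF4 had 10.11 and 10.17 for WT against 10.33 and 10.50 for R5W, a rise of 0.27 (SE 0.093, adjusted p = 0.0465). DBF4 was close to the threshold and was lost without WT replicate 1, WT replicate 2 or R5W replicate 2. It also did not pass with median-of-ratios, total or quantile scaling or with limma-voom (adjusted p from 0.0516 to 0.0578). CDC45, the helicase subunit that joins with GINS, had 10.16 and 10.18 for WT against 10.85 and 10.46 for R5W and rose by 0.48 (SE 0.116, adjusted p = 0.00947). The CDC45 libraries of R5W lay farther apart than the gap to WT, and the call was lost without WT replicate 1 or 2 (largest adjusted p = 0.113).

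Of the polymerase and primase genes in the programme, 5 of 6 rose. POLE2, the second subunit of the leading-strand polymerase epsilon, had log2 values of 7.87 and 7.89 for WT against 8.69 and 8.82 for R5W and rose by 0.87 (SE 0.127, adjusted p = 0.000318), the widest margin of the group, with both R5W libraries far above WT. POLE, its catalytic subunit, had 11.61 and 11.70 for WT against 12.04 and 11.94 for R5W and rose by 0.33 (SE 0.0789, adjusted p = 0.00795). POLD1, the catalytic subunit of the lagging-strand polymerase delta, had 12.54 and 12.57 for WT against 12.90 and 12.68 for R5W. Its difference of 0.23, with a 95% interval of 0.05 to 0.41, did not pass (adjusted p = 0.0552), although both R5W libraries were above both WT libraries. Of the complex of polymerase alpha and primase, which starts each new strand, 3 genes were in the programme. PRIM2, the other primase subunit, was kept in the list of further replication factors and did not pass. The groups overlapped for PRIM2, and its difference was 0.15 (limma, adjusted p = 0.359). POLA2 had 10.40 and 10.53 for WT against 11.11 and 10.82 for R5W and rose by 0.50 (SE 0.102, adjusted p = 0.00314). POLA1, the catalytic subunit, had 10.36 and 10.46 for WT against 10.84 and 10.71 for R5W and rose by 0.36 (SE 0.0884, adjusted p = 0.00939). PRIM1, the primase, had 9.30 and 9.44 for WT against 9.76 and 9.92 for R5W and rose by 0.47 (SE 0.104, adjusted p = 0.00519). The R5W libraries of PRIM1 and POLE2 ran against the usual order, with replicate 2 the higher. POLA2 and PRIM1 were lost without WT replicate 1 and POLA1 and POLE without WT replicate 1 or 2 (largest adjusted p from 0.106 for POLA2 to 0.221 for POLA1). Overlapping genes on the same strand cover 35.1% of the exon bases of POLA2 and 14.9% of those of PRIM1, so their reads may be shared.

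The sliding clamp and 3 of its 4 loader subunits in the programme rose. RFC1, a loader subunit kept in the list of further replication factors, rose by 0.43 (limma, adjusted p = 0.000923). That call was lost without WT replicate 1. PCNA, the ring that holds polymerases on DNA, had log2 values of 12.25 and 12.43 for WT against 13.03 and 12.91 for R5W and rose by 0.63 (SE 0.0824, adjusted p = 0.000142), and its scaled reads per kb were 3584 and 4063 for WT against 6137 and 5675 for R5W. RFC5 had 9.94 and 9.90 for WT against 10.63 and 10.45 for R5W and rose by 0.62 (SE 0.0933, adjusted p = 0.000411), and RFC3 had 10.87 and 11.02 for WT against 11.43 and 11.53 for R5W and rose by 0.53 (SE 0.0852, adjusted p = 0.000618). RFC4 had 10.21 and 10.33 for WT against 10.69 and 10.68 for R5W and rose by 0.41 (SE 0.0864, adjusted p = 0.00371). In these subunits of the clamp loader both R5W libraries lay above the higher WT library by more than the distance within either genotype. RFC2 had 10.34 and 10.44 for WT against 10.80 and 10.52 for R5W. Its difference of 0.27, with a 95% interval of 0.06 to 0.49, did not pass (adjusted p = 0.0639). RFC3 was lost without WT replicate 1 and RFC4 without WT replicate 1 or 2 (largest adjusted p = 0.053 and 0.15).

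On the lagging strand, FEN1, the nuclease that trims flaps off Okazaki fragments, had log2 values of 11.68 and 11.74 for WT against 12.55 and 12.31 for R5W and rose by 0.72 (SE 0.088, adjusted p = 7.99e-05). LIG1, the ligase that seals the same fragments, had 11.18 and 11.31 for WT against 11.58 and 11.23 for R5W. R5W replicate 2 of LIG1 lay between the WT libraries, and the difference was 0.15 with a 95% interval of -0.08 to 0.39 (adjusted p = 0.336). RRM1 and RRM2, the large and small subunits of ribonucleotide reductase, moved by like amounts. RRM1 had 11.86 and 11.89 for WT against 12.32 and 12.23 for R5W and rose by 0.40 (SE 0.0756, adjusted p = 0.00198), and RRM2 had 11.94 and 12.13 for WT against 12.60 and 12.33 for R5W and rose by 0.43 (SE 0.0982, adjusted p = 0.0071). RRM1 was lost without WT replicate 1 or 2 and RRM2 without WT replicate 1 (largest adjusted p = 0.0922 and 0.182), and a gene on the same strand overlaps 20.2% of the exon bases of RRM2.

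The 3 genes that serve histone supply and chromatin assembly rose, as did the checkpoint mediator CLSPN. CHAF1B, a subunit of the CAF-1 chaperone that places histones behind the fork, had log2 values of 9.24 and 9.38 for WT against 10.24 and 9.92 for R5W and rose by 0.77 (SE 0.115, adjusted p = 0.00038), and its partner CHAF1A had 10.06 and 10.19 for WT against 10.85 and 10.48 for R5W and rose by 0.54 (SE 0.115, adjusted p = 0.0045). SLBP, which binds the stem-loop of histone mRNAs, had 10.35 and 10.38 for WT against 10.92 and 10.77 for R5W and rose by 0.48 (SE 0.0876, adjusted p = 0.00157). CLSPN, which links stalled forks to CHEK1, had 9.23 and 9.43 for WT against 9.88 and 9.63 for R5W and rose by 0.42 (SE 0.114, adjusted p = 0.0163). For these 4 genes both R5W libraries were above WT, with replicate 1 the higher. CHAF1A and SLBP were lost without WT replicate 1 and CLSPN without WT replicate 1 or 2 (largest adjusted p = 0.0994, 0.0647 and 0.272).

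A further list of regulators joined genes of the cyclin D and RB pathway with other E2F genes, their partners TFDP1 and TFDP2, and MYC. Its genes were called higher more often than lower. Of 25 listed regulators 22 passed the filter on low values, with a median log2 fold change of 0.27. Of these, 11 (50%) were higher, 3 (13.6%) lower and 8 not called. The 11 were CCND1, CCND3, CDK2, CDK4, CDK6, MYC, TFDP1 and the E2F genes E2F3, E2F4, E2F7 and E2F8. Over all genes tested 13.1% were higher and 11.9% lower, so the share called lower was near that of all genes. MYC, which promotes entry into S phase, had log2 values of 11.38 and 11.34 for WT against 12.50 and 12.49 for R5W and rose by 1.13 (SE 0.0743, adjusted p = 8.14e-07), a 2.19-fold rise. CDK6 had 11.20 and 11.28 for WT against 11.84 and 11.93 for R5W and rose by 0.64 (SE 0.0789, adjusted p = 8.1e-05), and CDK4 had 11.56 and 11.65 for WT against 12.34 and 12.05 for R5W and rose by 0.59 (SE 0.0942, adjusted p = 0.000615). Both kinases and MYC passed with any library left out. The D cyclins were not alike in their calls. CCND2 had 13.10 and 13.07 for WT against 13.00 and 13.11 for R5W and showed a difference of -0.04 with a 95% interval of -0.19 to 0.12 (adjusted p = 0.772). CCND3 had 9.61 and 9.65 for WT against 10.18 and 9.93 for R5W and rose by 0.42 (SE 0.104, adjusted p = 0.00954), a call lost without WT replicate 1 or 2 (largest adjusted p = 0.155). CCND1 rose most, by 1.55 (SE 0.223, adjusted p = 0.000291), but from only 37 and 35 reads in WT to 114 and 89 in R5W.

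The 3 regulators called lower were CDKN2D, RB1 and RBL2. The E2F genes E2F8, E2F7 and E2F4, known as repressors, were among the 11 called higher, by 0.63, 0.50 and 0.27 (limma, adjusted p = 0.00125, 0.00729 and 0.0355). So was E2F3, by 0.39 (adjusted p = 0.00827), a call lost without WT replicate 1 or 2. E2F5, at -0.13, and E2F6, at 0.26, did not pass (adjusted p = 0.441 and 0.227). E2F8 and E2F7 were lost without WT replicate 1, and E2F4 without WT replicate 1, WT replicate 2 or R5W replicate 1 (largest adjusted p = 0.0656, 0.211 and 0.295). CDKN2D, which encodes an inhibitor of CDK4 and CDK6, fell by 1.30 (SE 0.313, adjusted p = 0.00858), from 49 and 42 reads in WT to 15 and 19 in R5W, a call lost without WT replicate 1 or 2 (largest adjusted p = 0.122). RB1 had 14.03 and 14.05 for WT against 13.74 and 13.88 for R5W and fell by 0.23 (adjusted p = 0.0392), and its relative RBL2 had 12.19 and 12.26 for WT against 11.88 and 12.08 for R5W and fell by 0.24 (adjusted p = 0.0468). These small falls were lost without WT replicate 1, WT replicate 2 or R5W replicate 1 (largest adjusted p = 0.336 and 0.4). CDKN1B, for the CDK inhibitor p27, had 10.94 and 10.88 for WT against 10.61 and 10.72 for R5W, a difference of -0.24 that did not pass (adjusted p = 0.0538). CDKN1A, for the inhibitor p21, had 11.55 and 11.20 for WT against 11.26 and 11.63 for R5W, with groups that overlapped and a difference of 0.07 (adjusted p = 0.777). CDKN1C, CDKN2A and CDKN2B had 0 reads in all 4 libraries.

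Other genes of the replication machinery and of the E2F programme leaned the same way. Of 31 further replication factors 19 (61.3%) were higher, 1 (3.2%) lower and 11 not called, with a median of 0.35. Over all genes tested 13.1% were higher and 11.9% lower. TIPIN, of the fork protection complex, had log2 values of 8.59 and 8.91 for WT against 9.34 and 9.50 for R5W and rose by 0.67 (SE 0.127, adjusted p = 0.00198). MCMBP, a binding partner of MCM proteins, had 10.02 and 10.29 for WT against 10.89 and 10.72 for R5W and rose by 0.65 (SE 0.105, adjusted p = 0.000663). GMNN, the inhibitor of CDT1, had 10.25 and 10.37 for WT against 10.98 and 10.89 for R5W and rose by 0.63 (SE 0.0866, adjusted p = 0.000202). In each of these 3 genes both R5W libraries were above both WT libraries. TIPIN was lost without WT replicate 1 (adjusted p = 0.0825). The exception was POLD4, the smallest subunit of polymerase delta, which had log2 values of 11.40 and 11.50 for WT against 10.94 and 10.63 for R5W and fell by 0.66 (SE 0.101, adjusted p = 0.000437). Of 14 repair genes known as E2F targets 10 (71.4%) were higher, 0 lower and 4 not called, and their median was 0.49. EXO1, a nuclease of mismatch repair, had 10.63 and 10.73 for WT against 11.49 and 11.34 for R5W and rose by 0.74. UNG, which removes uracil from DNA, had 10.36 and 10.55 for WT against 11.34 and 11.01 for R5W and rose by 0.72. These genes, like MSH6 and CHEK1, passed with any library left out. MSH6, which recognises mismatches, had 11.23 and 11.48 for WT against 12.13 and 12.02 for R5W and rose by 0.72. The checkpoint kinase CHEK1 had 9.02 and 9.20 for WT against 9.83 and 9.73 for R5W and rose by 0.67. Adjusted p for the 4 ran from 5.46e-05 for EXO1 to 0.000681 for UNG, and both R5W libraries were above WT in each. At an unadjusted p under 0.05, 0 of these 14 were lower.

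Among 8 genes of nucleotide supply, 3 (37.5%) were higher, 1 (12.5%) lower and 4 not called, with a median of 0.23. Over all genes tested 13.1% were higher and 11.9% lower, so the share called lower was near that of all genes. TYMS, which makes thymidylate, had log2 values of 12.06 and 12.15 for WT against 12.68 and 12.52 for R5W and rose by 0.49 (SE 0.0809, adjusted p = 0.00078). DTYMK, the kinase of the next step, had 11.05 and 11.02 for WT against 11.72 and 11.32 for R5W and rose by 0.48 (SE 0.113, adjusted p = 0.00885). DUT, which clears dUTP, had 11.21 and 11.34 for WT against 11.77 and 11.69 for R5W and rose by 0.46 (SE 0.0815, adjusted p = 0.00126). The R5W libraries of these genes were above the WT libraries. TYMS and DUT were lost without WT replicate 1 and DTYMK without WT replicate 1 or 2 (largest adjusted p = 0.0536, 0.0888 and 0.0921). RRM2B, the p53-induced form of the small reductase subunit, had 11.80 and 11.84 for WT against 11.37 and 11.53 for R5W and fell by 0.37 (SE 0.0817, adjusted p = 0.0053), while RRM2, the S-phase form, rose. The fall of RRM2B was lost without WT replicate 1 or 2 (adjusted p = 0.134).

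Genes of G2 and mitosis were shifted too, by smaller amounts. Of 20 such genes 11 (55%) were higher, 0 lower and 9 not called, beside 13.1% higher and 11.9% lower over all genes tested. The median was 0.27, beside 0.53 for the 42 replication genes, and the difference between these medians was not tested. At an unadjusted p under 0.05, 0 of the 20 were lower. AURKB, a mitotic kinase, had log2 values of 10.88 and 10.95 for WT against 11.67 and 11.33 for R5W and rose by 0.59 (SE 0.103, adjusted p = 0.00132). MYBL2, a regulator of mitotic genes, had 13.37 and 13.32 for WT against 13.89 and 13.79 for R5W and rose by 0.49 (SE 0.0727, adjusted p = 0.000364). Both passed with any library left out. UBE2C, a ubiquitin-conjugating enzyme of mitotic exit, had 11.22 and 11.34 for WT against 11.93 and 11.59 for R5W and rose by 0.48 (SE 0.105, adjusted p = 0.00538). CCNA2, for cyclin A2, had 11.36 and 11.52 for WT against 11.90 and 11.86 for R5W and rose by 0.44 (SE 0.0813, adjusted p = 0.00158). UBE2C and CCNA2 were lost without WT replicate 1 (adjusted p = 0.116 and 0.111). The proliferation marker MKI67 had 13.87 and 13.96 for WT against 14.02 and 14.10 for R5W, a difference of 0.14 that did not pass (adjusted p = 0.178), and TOP2A had 14.03 and 14.21 for WT against 14.32 and 14.32 for R5W, a difference of 0.20 (adjusted p = 0.0735). The plot of gene lists sets these groups side by side.

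**Figure D4:**
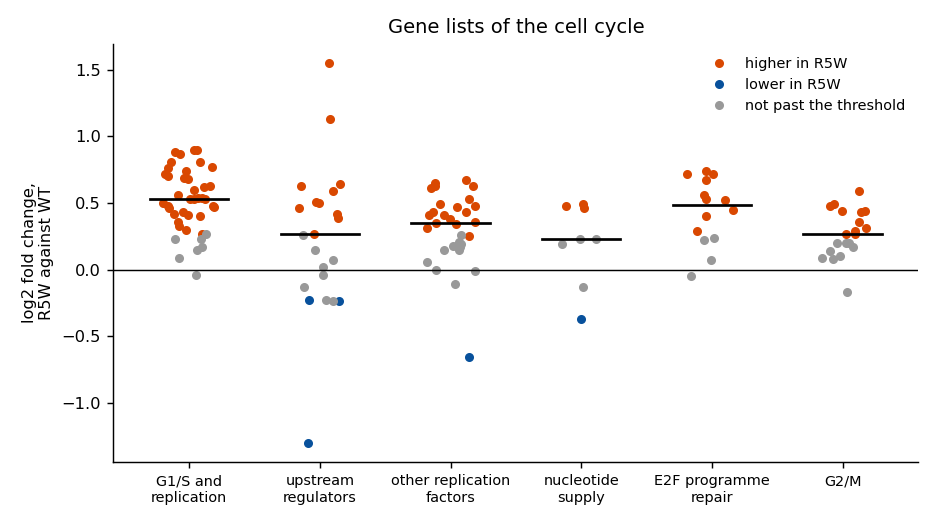
Each point is the log2 fold change of a gene in R5W against WT, by list, with a black bar at the median of the list; orange points were higher, blue points lower and grey points not past adjusted p under 0.05. The medians run from 0.53 for the 42 G1/S and replication genes to 0.23 for nucleotide supply, and the widest spread, from -1.30 to 1.55, is among the upstream regulators.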

How the data were processed

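RNA-seq of TMD8 cells, 2 WT and 2 R5W libraries, was analysed. The tools STAR, RSEM, cutadapt, Picard and bcl2fastq, and the build names hg19 and GRCh37, are listed in the submitters' processing notes. The sources used here give neither their versions and roles nor whether counting used strand. The deposited log2 values were made by the authors as log2 of whole reads times a factor per library, with 0 for no read: with the logarithm undone, 100% of values up to 100 reads were whole within 0.1 read. Of the table's symbols 27 had been turned into dates. The transcript lengths are those deposited by the authors.

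Values were taken back to the linear scale. Genes at 10 or more in at least 2 libraries were tested with limma 3.58.1 (R 4.3.3; trend, robust) on log2(value + 1), and p-values were adjusted by Benjamini-Hochberg over all 13698 genes. A fold change is on that log2(value + 1) scale and understates low genes. The script was tested on simulated data. An exact permutation test of 2 against 2 libraries cannot go below p = 0.333. Depth limits counting error only, as no molecular identifiers are mentioned. Alternatives were pseudocounts of 0.5 and 4, no filter, a filter at 50, other scalings (median of ratios, total, quantile), limma-voom on the recovered reads, limma without trend and robust steps, the replicate number as a block, and each library left out; with a library left out, the lone library of its group is assumed to vary like the other group. Motifs were searched in RefSeq promoters of GRCh38.p14, and exon overlaps over 10% were read from GENCODE v29 on GRCh38. No coordinate was converted between builds.

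Values per library are given for the genes of the programme that passed, for the largest and smallest change of each role, and for all MCM2-7 and GINS subunits; from other lists, up to 4 genes with the largest change that passed, and MYC, CDKN1A, CDKN1B, CCND2, CCND3, CDK4 and CDK6. E2F4, E2F7, E2F8, RB1, RBL2, MKI67, TOP2A and the genes with 0 reads were added after their values were seen, as were the 9 printed promoters. The same holds for ORC2, ORC3, ORC4, ORC5, PRIM2, RFC1, E2F3, E2F5 and E2F6, for which only the difference is given. The genes and lists were chosen with earlier results of these data known. The result of 1 marker gene is not reported here.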

Additional observations from a re-analysis of the deposited data

How the results depend on the processing

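Pseudocounts of 0.5 and 4, the filters, the scalings, limma-voom and the replicate block left between 34 and 37 of the 42 genes higher and 0 lower. Over the scalings the median log2 fold change of all genes lay between 0.00106 and 0.0115. Without the trend and robust steps of limma, 7 of the 42 genes were higher, as were 480 of all genes, with 420 lower, and 7 genes of the other lists were higher and 1 lower, against 54 and 5; the cause was not tested. With a library left out, the genes of the programme called higher numbered 18 to 39, all genes called higher 561 to 2817 and called lower 463 to 2851, and genes of the other lists 14 to 64 higher and 1 to 11 lower. With a library left out, E2F2 ranged from -0.16 to 0.09 and never passed, and LIG1 ranged from -0.02 without R5W replicate 1 to 0.33 without R5W replicate 2, where it passed (adjusted p = 1.84e-05). The labels give both genotypes replicates 1 and 2, but same-numbered libraries did not deviate together (r = -0.0608 over 13698 genes). This correlation cannot show whether same-numbered libraries were made as pairs, and the labels do not say. With the replicate block 37 of the 42 genes were higher, with 1927 higher and 1786 lower among all genes. No gene list was tested as a set. With 2 libraries per group, the calls of genes near the threshold turn on single libraries in both directions.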
